A study of Mus musculus with 10 samples.

Results

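The genes that make, phosphorylate and spend nicotinamide adenine dinucleotide (NAD) were followed in a mouse small cell lung cancer line after stiripentol. The members were 10 genes, taken by symbol: the synthesis enzymes Nampt, Nmnat1, Nmnat3, Naprt and Nadsyn1, the NAD kinases Nadk and Nadk2, the transhydrogenase Nnt, and the deacetylases Sirt1 and Sirt3. They filled 11 of the 26335 rows of the expression table, because Nnt had 2 rows. Of these, 10 rows, for 9 genes, were among the 12306 rows with a mean log2 CPM above 0 that were tested. CPM gives reads relative to the size of the library they came from. Naprt, with 2 to 17 reads per library, did not reach that mean.

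RNA was sequenced from mSCLC-2405 cells, a line derived from a primary lung tumour of a mouse model in which Rb1 and Trp53 are deleted by Cre. The 5 control libraries came from cells given the solvent DMSO, and the 5 stiripentol libraries from cells given 250 μM stiripentol, each for 48 h. Stiripentol is an antiepileptic drug that inhibits lactate dehydrogenase. The study reports that it also inhibits mitochondrial complex I, another enzyme that oxidizes NADH. Both groups are thus the same single cell line in culture, and the sample records do not say whether the libraries of a group came from separate cultures, so p-values measure the spread between these libraries. The study's methods call its samples independent biological samples, in a statement that speaks of individual mice and covers all its experiments. The methods of the study name a 3′ mRNA kit and the sample records a total RNA kit.

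NAD carries electrons between glycolysis, the mitochondrion and other pathways, and it is also consumed by sirtuins and ADP-ribosyl transferases, which release nicotinamide. Most cultured mammalian cells rebuild it by the salvage route, in which NAMPT turns nicotinamide into nicotinamide mononucleotide and an NMNAT adds the adenylyl group. NAD kinases add a phosphate to make NADP, and in the inner mitochondrial membrane NNT uses the proton gradient to pass electrons from NADH to NADP. Lactate dehydrogenase itself returns NADH to NAD when it reduces pyruvate.

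Within each group 2 clusters of libraries were seen. Controls 1 to 3 stood apart from controls 4 and 5, and stiripentol 3 to 5 from stiripentol 1 and 2, with a correlation across genes of 0.983 to 0.997 within and 0.920 to 0.939 between the clusters of a group. In what follows the first set is control 1 to 3 with stiripentol 3 to 5, and the second set is control 4 and 5 with stiripentol 1 and 2. The study's own table numbers the controls differently from the sample records, with controls 4 and 5 of the records as its first pair, and that numbering matches the sets so. The sample records do not give a set. Matched so, the difference between the clusters in control and that in stiripentol correlated across tested genes at only 0.211. The reads recovered per library were 22375625 to 65299372 in control, the lowest being control 5, and 55015760 to 60670901 in stiripentol. A gene with no read was given -4.82 in controls 1 to 3 and -4.74 elsewhere, so controls 1 to 3 were normalized apart from all other libraries. This split differs from that of the first and second set. In the first set the controls and the stiripentol libraries lie on different sides of it. The median change of all tested genes was -0.06 on the log2 scale over the 10 libraries, 0.08 in the first set and -0.25 in the second, and the values below were not shifted for it.

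Reads of both genes deleted in the mouse model were present, with 252 to 1443 reads per library for Rb1 and 30 to 236 for Trp53. The rows give no position within a gene, so reads of the deleted part and of the rest cannot be told apart. The labelled cell type was checked against 7 neuroendocrine markers, of which 5 were in the table and 2 passed the filter. Insm1 had at most 10 reads in any library, whereas Ncam1 averaged 6.69 log2 CPM in control and 7.15 in stiripentol. The epithelial keratins Krt8 and Krt18 averaged 10.1 and 10.3 log2 CPM in control, and Epcam had at most 1 read. The 2 leukocyte markers summed to 4.13 to 17.9 CPM in control and 55.1 to 103 CPM in stiripentol. That sum was almost all Cd68, a lysosomal membrane protein gene, while Ptprc had at most 3 reads. The 3 fibroblast markers summed to 157 to 384 CPM in control and 103 to 125 CPM in stiripentol. The part of these differences in the results below was not tested. In RNA from whole cultures, fewer cells of a kind and less RNA per cell cannot be told apart.

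Nampt, Sirt3 and Nadk rose with stiripentol and 1 of the 2 Nnt rows fell, while the other 6 tested rows did not pass the test. The 4 called rows of 10 stand beside 27.7% of all tested genes called in either direction, 13.6% higher and 14.1% lower (limma, Benjamini-Hochberg adjusted p under 0.05 over 12306 rows). With 10 rows, nothing is read from this count, and the results are those of the single genes. In the 2 sets the 4 called rows moved in the same direction, whereas 4 other rows, Nmnat1, Nmnat3, Nadsyn1 and Nadk2, had opposite signs. These signs depend on how the clusters were matched. Crossed sets join controls 1 to 3 with stiripentol 1 and 2, and controls 4 and 5 with stiripentol 3 to 5. Crossed so, Nadsyn1 changed by 0.23 and 0.19 and Nadk2 by 0.46 and 0.08, while Nmnat1 and Nmnat3 kept opposite signs. The sets hold the same libraries as the test, and opposite signs make a call less likely. The shared direction is thus no separate support for the called rows.

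**Figure D1:**
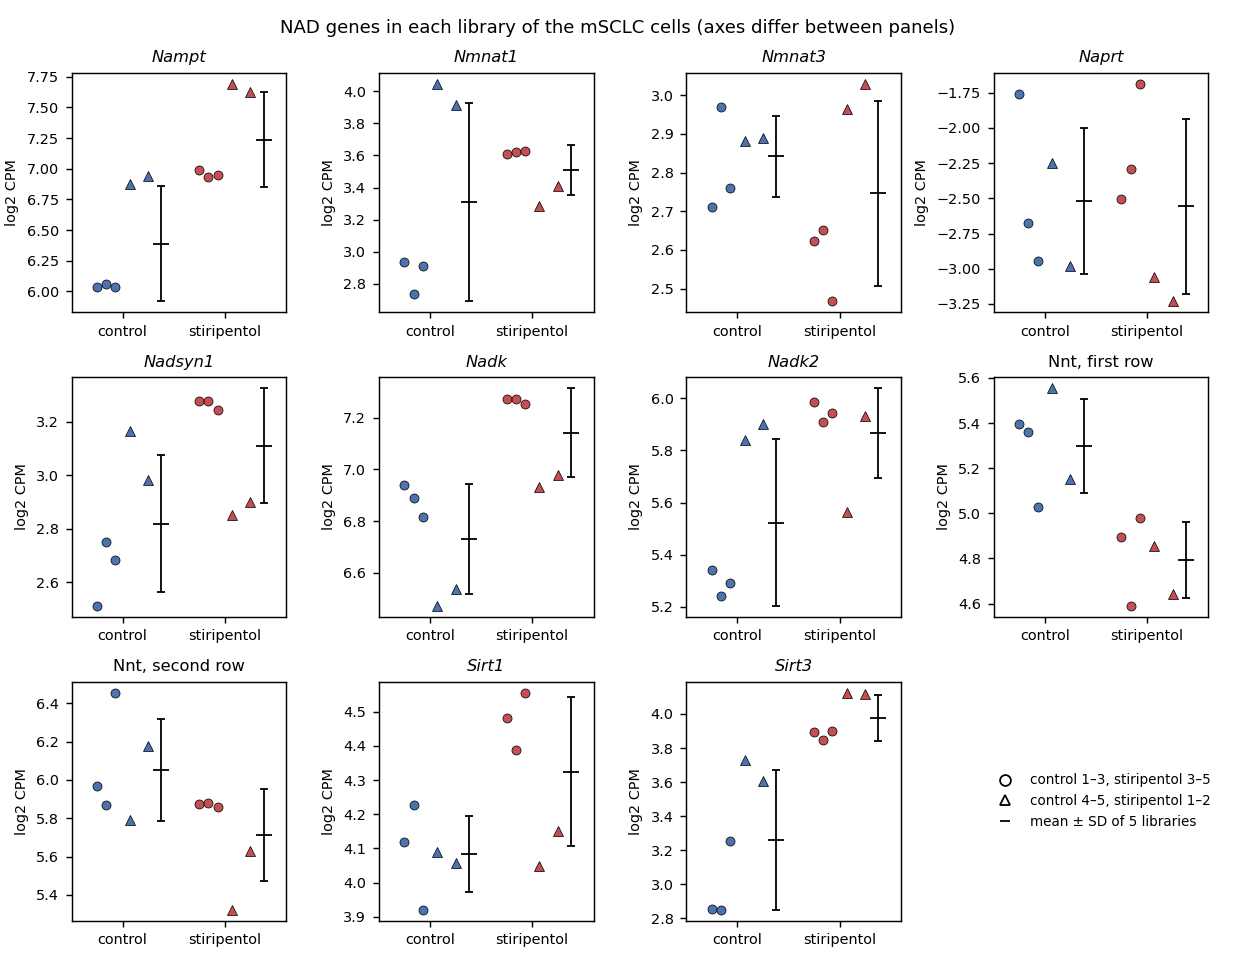
Log2 CPM of each member (vertical axes, which differ between panels) in the 5 control (blue) and 5 stiripentol (red) libraries, circles for the first set and triangles for the second, with the mean ± SD of 5 libraries beside them. Nampt lies near 6.0 in controls 1 to 3 and above 7.6 in stiripentol 1 and 2, with the other 5 libraries close to 6.9, and the control and stiripentol values of Sirt3 and of the first Nnt row do not overlap.

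The sequence upstream of the RefSeq start of Nampt, the most changed member, is given (GRCm38.p6, plus strand). That of Nadk stands beside it, as another called gene whose window is free of annotated exons. The windows are chr12:32820085-32820334 for Nampt, 250 bases, and chr4:155562131-155562377 for the outermost start of Nadk, 247 bases. The annotation GENCODE M21 starts Nampt farther out, at 32819545, so the Nampt window lies inside that gene, outside its exons. What is said of this window holds for the RefSeq start only. Capitals mark the GC box GGGCGG and the CCAAT box, each searched on both strands. The E-box CACGTG was searched as well and is in neither window.
Nampt: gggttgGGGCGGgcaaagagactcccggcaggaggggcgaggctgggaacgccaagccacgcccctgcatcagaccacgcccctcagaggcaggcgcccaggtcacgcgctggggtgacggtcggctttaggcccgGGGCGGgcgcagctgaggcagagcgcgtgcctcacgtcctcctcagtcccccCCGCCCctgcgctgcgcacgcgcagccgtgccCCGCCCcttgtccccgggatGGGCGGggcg
Nadk: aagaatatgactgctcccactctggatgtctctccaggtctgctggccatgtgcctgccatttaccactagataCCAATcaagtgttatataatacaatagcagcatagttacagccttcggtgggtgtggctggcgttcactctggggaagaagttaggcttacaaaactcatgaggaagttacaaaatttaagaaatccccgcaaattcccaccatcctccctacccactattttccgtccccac
The Nampt window holds 5 GC boxes and is 75.6% G and C. The window of the outermost Nadk start holds 1 CCAAT box and no GC box. The full 250 bases upstream of that start, 3 of them exonic and not printed, are 46.8% G and C. The inner Nadk start has a window that is 66.0% G and C and holds 1 GC box and 1 E-box, so these values depend on the start chosen. Of the 32851 upstream windows of 250 bases in RefSeq, 32.7% hold a GC box, 33.8% a CCAAT box and 6.02% an E-box. RefSeq windows were found for 7 members with 10 starts, and 8 of these 10 windows hold a GC box, 3 a CCAAT box and 2 an E-box. The 2 windows of Nmnat1 overlap, so 1 box may be counted in both. Both windows of Sirt3 lie wholly in annotated exons. Nothing is read from these counts. These are matches of letters, and binding was not measured.

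Nampt, the rate-limiting enzyme of NAD salvage (chromosome 12, 32819545 to 32853349, plus strand, GRCm38), showed the largest change of the tested members. Controls 1 to 5 read 6.04, 6.06, 6.04, 6.87 and 6.94 log2 CPM. Stiripentol 1 to 5 read 7.69, 7.63, 6.99, 6.94 and 6.95. Controls 4 and 5 were close to stiripentol 3 to 5, and the highest control and the lowest stiripentol library both read 6.94, so the groups just overlapped. The mean went from 6.39 ± 0.47 (SD, n = 5) to 7.24 ± 0.39 (SD, n = 5), a rise of 0.85 on the log2 scale (SE 0.25, 95% confidence interval 0.31 to 1.39), or 1.80-fold, with an adjusted p of 0.0275 (limma). Within the sets the rise was 0.91 in the first (95% confidence interval 0.79 to 1.03) and 0.75 in the second (0.53 to 0.97). The difference of -0.16 between them (95% confidence interval -0.37 to 0.05) did not pass the interaction test (limma, adjusted p = 0.158). With the sets crossed, the difference was 1.61 from controls 1 to 3 to stiripentol 1 and 2 but 0.05 from controls 4 and 5 to stiripentol 3 to 5. The call was lost without any 1 of controls 1, 2 and 3 or stiripentol 1 and 2, at adjusted p between 0.0605 and 0.0671 and changes of 0.73 to 0.77 (limma).

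Nmnat1, the nuclear adenylyltransferase that completes NAD (chromosome 4, 149467572 to 149485202, minus strand), moved in opposite directions in the 2 sets. Controls 1 to 5 read 2.94, 2.73, 2.91, 4.05 and 3.92 log2 CPM. Stiripentol 1 to 5 read 3.29, 3.41, 3.61, 3.62 and 3.63. All stiripentol libraries thus lay above controls 1 to 3 and below controls 4 and 5. Over all libraries the change of 0.20 (95% confidence interval -0.41 to 0.81) did not pass the test (limma, adjusted p = 0.598). Nmnat1 rose by 0.76 in the first set (limma, adjusted p = 0.000289) and fell by 0.63 in the second (limma, adjusted p = 0.00191). Tests within a set compare few, closely alike libraries, and they called 7959 of the 12306 tested genes in the first set and 8884 in the second. The difference between these changes was -1.39 (95% confidence interval -1.72 to -1.06; limma interaction, adjusted p = 1.6e-05). For the interaction test 3 of 10 member rows were called, beside 63.3% of all tested genes.

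Nmnat3, which codes for the mitochondrial adenylyltransferase (chromosome 9, 98287435 to 98420438, plus strand), did not pass the test. Its values were 2.71, 2.97, 2.76, 2.88 and 2.89 log2 CPM in controls 1 to 5 and 2.96, 3.03, 2.62, 2.65 and 2.47 in stiripentol 1 to 5. Stiripentol 3 to 5 were the lowest 3 libraries and stiripentol 2 the highest. The change was -0.09 (95% confidence interval -0.47 to 0.28; limma, adjusted p = 0.689), with -0.23 in the first set and 0.11 in the second, and the sign turned to 0.15 after quantile normalization.

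The enzymes that use nicotinic acid are the other entry to NAD. Naprt, nicotinate phosphoribosyltransferase (chromosome 15, 75890956 to 75894481, minus strand), was close to the limit of detection in both groups, with values from -2.98 to -1.76 log2 CPM in control and from -3.23 to -1.69 in stiripentol, which overlap throughout. Of its exonic bases 11.8% are shared with Eef1d on the same strand. Nadsyn1, the synthetase that makes the final amide of this route (chromosome 7, 143795584 to 143822849, minus strand), read 2.51, 2.75, 2.68, 3.17 and 2.98 log2 CPM in controls 1 to 5 and 2.85, 2.90, 3.28, 3.28 and 3.24 in stiripentol 1 to 5. The first set separated by group, and in the second both stiripentol libraries were below both controls. The change over all libraries was 0.29 (95% confidence interval -0.12 to 0.70; limma, adjusted p = 0.249). It was 0.62 in the first set and -0.20 in the second, a difference of -0.82 (limma interaction, adjusted p = 0.00125). Crossing the sets gave 0.23 and 0.19 instead.

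Of the NAD kinases 1 was called. Nadk, the cytosolic kinase (chromosome 4, 155562378 to 155591001, plus strand), rose with stiripentol by 0.41 (SE 0.13, 95% confidence interval 0.13 to 0.69; limma, adjusted p = 0.0361), or 1.33-fold. Controls 1 to 5 read 6.94, 6.89, 6.82, 6.47 and 6.54 log2 CPM. Stiripentol 1 to 5 read 6.93, 6.98, 7.27, 7.27 and 7.25. Stiripentol 2 to 5 were above every control, and stiripentol 1 lay just under control 1. In contrast to Nampt, the second set was the lower one in both groups, and the change was 0.38 in the first and 0.45 in the second set (limma interaction, adjusted p = 0.577). With the sets crossed it was 0.07 from controls 1 to 3 and 0.76 from controls 4 and 5. Without any 1 of controls 3, 4 and 5 or stiripentol 3, 4 and 5 the adjusted p was 0.0567 to 0.0747 (limma), with changes of 0.35 to 0.43.

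Nadk2, the mitochondrial NAD kinase (chromosome 15, 9071260 to 9110891, plus strand), read 5.34, 5.24, 5.29, 5.84 and 5.90 log2 CPM in controls 1 to 5 and 5.56, 5.93, 5.99, 5.91 and 5.94 in stiripentol 1 to 5. Controls 1 to 3 were the lowest libraries, and controls 4 and 5 lay among the stiripentol values. The change of 0.34 (95% confidence interval -0.01 to 0.70) did not pass the test (limma, adjusted p = 0.133). It was 0.65 in the first set and -0.12 in the second, a difference of -0.77 (limma interaction, adjusted p = 0.000748). With the sets crossed the change was 0.46 from controls 1 to 3 and 0.08 from controls 4 and 5, without a turn of sign.

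**Figure D2:**
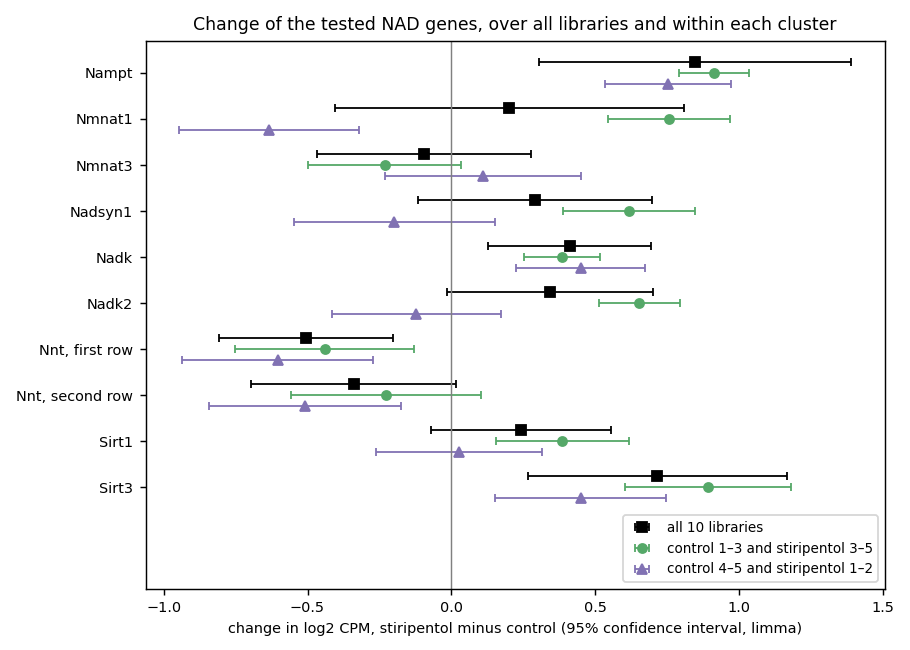
Change in log2 CPM, stiripentol minus control (horizontal axis), of the 10 tested rows over all libraries (squares), in the first set (circles) and in the second set (triangles), with 95% confidence intervals from limma. Nampt, Nadk, Sirt3 and the first Nnt row have all 3 intervals on 1 side of 0, and Nmnat1 has an interval above 0 in the first set and below 0 in the second.

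Both Nnt rows had a lower mean with stiripentol, and only the first passed the test. The annotation GENCODE M21 (GRCm38) has 2 gene models of this symbol on the minus strand of chromosome 13, 119335448 to 119408997 and 119335528 to 119408952. All 3339 exonic bases of the shorter model lie within exons of the longer one, which has 7037. The table gives no identifiers, so its rows could not be tied to the models, and how reads were divided between them is uncertain. The rows are called first and second by their order in the table.

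The first Nnt row read 5.40, 5.36, 5.03, 5.55 and 5.15 log2 CPM in controls 1 to 5 and 4.86, 4.64, 4.90, 4.59 and 4.98 in stiripentol 1 to 5. Every stiripentol library was below every control, a separation found for 2 of the 10 member rows and for 27.2% of all tested genes. Its mean fell by 0.51 on the log2 scale (SE 0.14, 95% confidence interval -0.81 to -0.20; limma, adjusted p = 0.0214). The call was lost without any 1 of control 1, control 2 and stiripentol 2, at adjusted p of 0.0512 to 0.0525, and when the libraries were set to the same median (0.0557) or quantile normalized (0.053), all with limma.

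The second Nnt row read 5.97, 5.87, 6.46, 5.79 and 6.18 log2 CPM in controls 1 to 5 and 5.32, 5.63, 5.87, 5.88 and 5.86 in stiripentol 1 to 5. Control 3 was the highest library in this row and the lowest control in the first, and the groups overlapped. The change was -0.34 (95% confidence interval -0.70 to 0.02) and did not pass the test (limma, adjusted p = 0.134).

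The reads of both rows were therefore also summed, a choice made after their values were seen. The first row held 27.1% to 45.9% of the summed reads. The sum was 6.71, 6.64, 6.91, 6.68 and 6.75 log2 CPM in controls 1 to 5 and 6.11, 6.22, 6.47, 6.37 and 6.49 in stiripentol 1 to 5, with no overlap between the groups. It went from 6.74 ± 0.11 to 6.33 ± 0.16 (SD, n = 5 each), and fell by 0.41 on the log2 scale (SE 0.11; limma, adjusted p = 0.0176). The sum changed by -0.31 in the first set and -0.55 in the second (limma interaction, adjusted p = 0.126). The median changes of all tested genes in these sets were 0.08 and -0.25. Unlike the single rows, the sum was not examined with libraries left out or with other scalings. The spread between control libraries was smaller for the sum than for either row, whose SDs were 0.21 and 0.27.

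**Figure D3:**
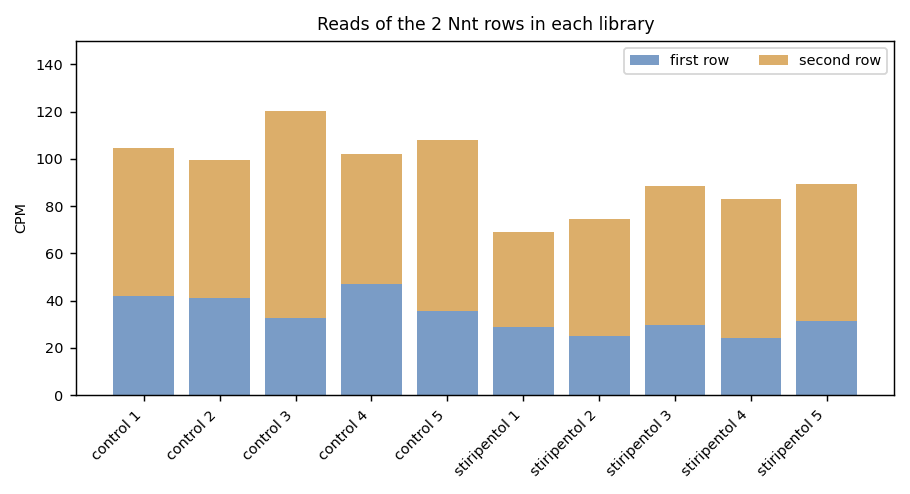
CPM of the first (blue) and second (orange) Nnt row, stacked, in each control and stiripentol library (horizontal axis). The stacked height is 68.9 to 89.6 CPM in the 5 stiripentol libraries and 99.5 to 120 CPM in the 5 controls, while the share of the first row varies from 27.1% to 45.9%.

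Of the deacetylases that consume NAD, Sirt3 rose and Sirt1 did not pass the test. Sirt3, the main mitochondrial deacetylase (chromosome 7, 140863666 to 140882309, minus strand), read 2.86, 2.85, 3.26, 3.73 and 3.61 log2 CPM in controls 1 to 5. Stiripentol 1 to 5 read 4.13, 4.12, 3.90, 3.85 and 3.90. Every stiripentol library was above every control, and the second set was the higher one in both groups, as for Nampt. The rise was 0.72 (SE 0.20, 95% confidence interval 0.27 to 1.17; limma, adjusted p = 0.0256), or 1.64-fold, with 0.89 in the first set and 0.45 in the second (limma interaction, adjusted p = 0.0526). With the sets crossed it was 1.13 from controls 1 to 3 and 0.21 from controls 4 and 5. The call was lost without any 1 of controls 1, 2 and 3 or stiripentol 1 and 2, with adjusted p of 0.0519 to 0.0622 and changes of 0.61 to 0.71 (limma).

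Exons of Sirt3 share 418 bases with Ric8a and 342 with Psmd13, 7.0% and 5.73% of its exonic bases, on the opposite strand. Whether reads were counted by strand is not given in the sources used here, and without strand the reads of such stretches cannot be told apart. Ric8a and Psmd13 had changes of -0.46 and -0.12 (limma, adjusted p = 0.0507 and 0.535). Their control means of 5.79 and 5.91 log2 CPM were above the 3.26 of Sirt3. How many reads of the Sirt3 row come from these genes was not tested.

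Sirt1, the nuclear deacetylase (chromosome 10, 63319005 to 63381704, minus strand), read 4.12, 4.23, 3.92, 4.09 and 4.06 log2 CPM in controls 1 to 5 and 4.05, 4.15, 4.48, 4.39 and 4.56 in stiripentol 1 to 5. Stiripentol 3 to 5 were above every control, and stiripentol 1 and 2 lay within the control range. Of its exonic bases 1.22% are shared with the antisense gene Gm16145. The change was 0.24 (95% confidence interval -0.07 to 0.56; limma, adjusted p = 0.216), with 0.39 in the first set and 0.03 in the second (limma interaction, adjusted p = 0.0575).

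Among the members, the levels of Nampt and Sirt3 ran most closely together over the 10 libraries, with a Pearson correlation of 0.938. Nmnat1 and Nadk2 followed at 0.873, and Nadsyn1 and Nadk2 at 0.855. These are descriptions over libraries that share 2 groups and 2 clusters, and any gene that differs between them in the same way gives a high value. Over all tested genes the profile most like that of Nampt was Rit1, with a correlation of 0.995, then Bex3 at 0.992 and Cep95 at 0.991. For the first Nnt row these were Fnta at 0.940, Cisd3 at 0.920 and Cyb561d2 at 0.919, and for the second Atxn1 at 0.980, Plekha6 at 0.977 and Amot at 0.966.

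Other genes of NAD metabolism were taken from 8 lists with 54 genes, of which 53 were in the table and 43 were tested. With stiripentol 8 rose, 5 fell and 30 did not pass the test, so that 30.2% were called beside 27.7% of all tested genes, with a median change of 0.06 beside -0.06. Of the salvage and nicotinamide list, 2 of 8 tested genes fell and 6 did not pass the test. Nmnat2, the cytosolic adenylyltransferase, fell by 1.17 on the log2 scale (limma, adjusted p = 0.0122), with changes of -0.71 in the first set and -1.86 in the second. Nt5e, the surface nucleotidase CD73, fell by 1.30 (limma, adjusted p = 0.0041). The nicotinamide riboside kinase Nmrk1 and the nicotinamide methyltransferase Nnmt had changes of 0.47 and 0.74 that did not pass (limma, adjusted p = 0.298 and 0.128), each with opposite signs in the 2 sets.

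The enzymes that make NAD from tryptophan gave few reads. Of the 9 genes of that list 8 were in the table and 1, Afmid, was tested, with a change of -0.14 (limma, adjusted p = 0.547). Tdo2, Ido1, Kmo, Haao, Acmsd and Qprt had at most 10 reads in any library, and Ido2 at most 50. Of the 2 transport genes tested, Slc25a51, the mitochondrial NAD carrier, rose by 0.28 (limma, adjusted p = 0.0412) and was higher in every stiripentol library than in any control. Slc25a17, a peroxisomal carrier, had a change of -0.19 (limma, adjusted p = 0.166).

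Among the 5 other sirtuins, Sirt2 rose by 0.64 (limma, adjusted p = 0.0347) and the other 4 did not pass the test. Sirt4 and Sirt5, which like Sirt3 are mitochondrial, had changes of -0.76 and 0.31 (limma, adjusted p = 0.145 and 0.198). Sirt6 had a change of 0.00 over all libraries (limma, adjusted p = 0.996), but it rose by 0.30 in the first set and fell by 0.45 in the second (limma, adjusted p = 0.0138 and 0.0119; interaction, adjusted p = 0.000732). Sirt7 had a change of 0.54 (limma, adjusted p = 0.150), with 0.86 in the first set and 0.05 in the second (limma interaction, adjusted p = 0.00262).

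Of the 15 ADP-ribosyl transferases, 4 rose, 1 fell and 10 did not pass the test, so 33.3% were called beside 27.7% of all tested genes. Tiparp, a target of the aryl hydrocarbon receptor, rose by 1.53 (limma, adjusted p = 0.00266). Parp6 rose by 1.08, Tnks (tankyrase) by 0.57 and the DNA damage sensor Parp2 by 0.41, while Parp11 fell by 0.53 (limma, adjusted p = 0.0474, 0.00199, 0.0157 and 0.0229). Parp1, the main nuclear enzyme of this kind, had a change of 0.06 (limma, adjusted p = 0.765). Of the 3 NAD glycohydrolases, Bst1 fell by 1.26 (limma, adjusted p = 0.0135) and Cd38 had a change of -0.86 (limma, adjusted p = 0.0895), with -0.20 in the first set and -1.84 in the second. Sarm1, the third, had a change of 0.09 over all libraries (limma, adjusted p = 0.930), but it rose by 1.56 in the first set and fell by 2.12 in the second (limma, adjusted p = 0.000308 and 0.000182).

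NADP is dephosphorylated by HDDC3 and nocturnin and reduced by several dehydrogenases. Hddc3 rose by 0.77 (limma, adjusted p = 0.00986) and Noct had a change of -0.54 (limma, adjusted p = 0.362). Of 7 tested NADPH-producing dehydrogenases, 1 rose, 1 fell and 5 did not pass, so 28.6% were called beside 27.7% of all tested genes. Aldh1l2, a mitochondrial folate enzyme, rose from 2.57 ± 0.51 to 4.94 ± 0.40 log2 CPM (SD, n = 5 each), by 2.38 (limma, adjusted p = 0.000334), with 2.36 in the first set and 2.39 in the second. Idh1, the cytosolic isocitrate dehydrogenase, fell by 1.28 (limma, adjusted p = 0.00277), with changes of -0.74 in the first set and -2.09 in the second. The mitochondrial Idh2 and the malic enzyme Me3 had changes of 0.39 and 0.91 (limma, adjusted p = 0.195 and 0.0591), and G6pdx, of the pentose phosphate pathway, -0.36 (limma, adjusted p = 0.115). Pgd and Me1 had changes of -0.51 and -0.08 (limma, adjusted p = 0.205 and 0.849), each with opposite signs in the 2 sets.

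**Figure D4:**
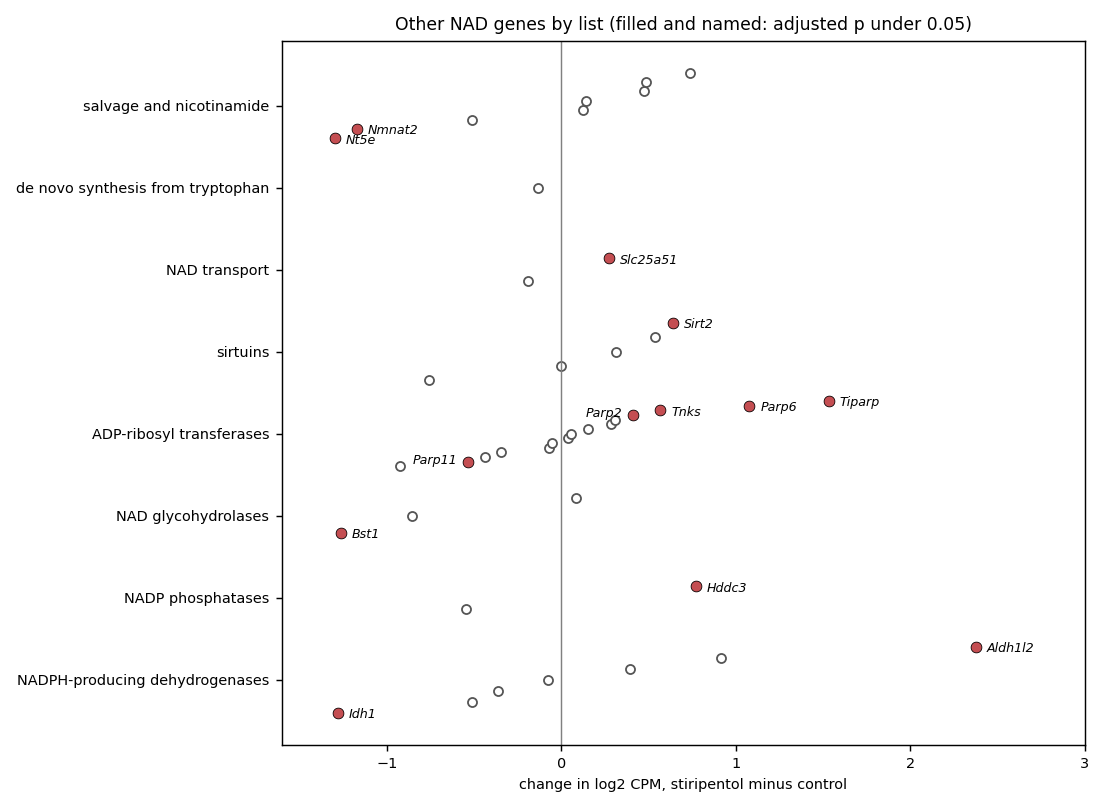
Change in log2 CPM, stiripentol minus control (horizontal axis), of the 43 tested genes of the wider NAD lists, 1 point a gene, with the 13 called genes (limma, adjusted p under 0.05) filled and named. Aldh1l2 lies farthest to the right at 2.38, Nt5e farthest to the left at -1.30, and most lists hold genes on both sides of 0.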

How the data were processed

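RNA of 5 control and 5 stiripentol libraries of mSCLC-2405 cells was analysed from 1 table. The deposited values are log2 CPM, made by the authors with a prior of 0.837 to 2.38 reads added before the logarithm. Their methods name GENAVi for this step, and the submitters' processing notes name the build mm10. The aligner and annotation are not given in the sources used here. The table also holds group means, ratios, p-values and q-values made by the authors, which were not used. The 10 columns were matched to samples by name. Whole reads were recovered from 100% of the values (tolerance 0.1 read), giving 22375625 to 65299372 reads per library. Without molecular identifiers, depth describes counting error only.

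The result of 1 marker gene is not reported here. Groups were compared on the deposited values with limma 3.58.1 in R 4.3.3 (mean-variance trend, Benjamini-Hochberg over the 12306 rows with a mean log2 CPM above 0), and fold changes are on this scale with its prior. A group by set interaction tested whether effects differed. The code was tested on simulated data. All 10 members, the called genes of the wider NAD lists and the 3 genes most correlated with Nampt and each Nnt row are named, and further genes of these lists were added as examples. The members and lists were chosen with earlier results of these data known. Alternatives were each library left out, a replicate block, a set term, each set alone, 1 mean per group and set, other scalings, filters and priors (0.1 and 1 CPM), limma voom on recovered reads and, added after the values were seen, crossed sets, a block in the study table's numbering and summed Nnt rows. Gene positions are from GENCODE M21, sequences from RefSeq (GRCm38.p6), and figures were drawn with matplotlib 3.10.9.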

Additional observations from a re-analysis of the deposited data

Results flagged for a closer look

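For Nmnat1, Nadsyn1 and Nadk2 the change with stiripentol differed between the 2 sets of libraries (limma interaction, called beside 63.3% of all tested genes). The change in the second set minus that in the first was -1.39 for Nmnat1, -0.82 for Nadsyn1 and -0.77 for Nadk2 on the log2 scale. With the sets crossed, Nmnat1 and Nadk2 were among 7 rows called, beside 8847 of all 12306 tested genes, and Nadsyn1 was not. The crossed changes were 0.49 and -0.36 for Nmnat1 but 0.46 and 0.08 for Nadk2, so its opposite signs were not kept. Whether the sets stand for cultures, dates or another difference was not tested.

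Nadk2 in stiripentol 1 read 5.56 log2 CPM, far from the other 4 stiripentol libraries, which read 5.91 to 5.99. It passed Dixon's 95% limit, for which 22 groups of 5 libraries were examined, and chance passes about 1 in 20.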

How the results depend on the processing

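Of the 10 tested member rows, 4 were called. Of all 12306 tested genes 3414 were called. Leaving out 1 library at a time gave 1 to 3 member rows, beside 2389 to 3320 of all tested genes. The first set alone gave 8, beside 7959. No filter on low values gave 2, beside 3452 of 26335 rows. A replicate block gave 0, beside 2082 of all tested genes, and 1 mean per group and set gave 0, beside 0 (limma; at an unadjusted p under 0.05, 4 and 0 rows, and limma voom without either called 4, beside 3626). That block used the numbers of the sample records, by which deviations of same-numbered libraries correlated at -0.24 to 0.06. In the numbering of the study's own table, added after the values were seen, they correlated at 0.08 to 0.22. With that numbering the replicate block called 4 member rows and 17 other NAD genes, beside 4249 of all tested genes. Neither numbering was taken as pairing the libraries. For the other NAD genes, 13 of 43 were called, against 8 with the replicate block of the records (2082 of all tested genes) and 22 with a set term (6244). The first set gave 30 and the second 33, beside 7959 and 8884 of all tested genes. With 1 mean per group and set 0 were called (3 at an unadjusted p under 0.05). For the interaction, 3 member rows were called, beside 7792 of all tested genes. With 1 library left out 3 to 5 were called (6858 to 8738), with equal medians 5 (7829) and with crossed sets 7 (8847). Other settings kept these counts within 1.5 times.

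Over all alternatives the adjusted p (limma) ranged from 8.24e-06 to 0.573 for Nampt, 0.000289 to 0.685 for Nadk, 0.000562 to 0.689 for Sirt3 and 0.00379 to 0.677 for the first Nnt row, with no change of sign. Signs turned in the second set alone for Nmnat1 (-0.63), Nmnat3 (0.11), Nadsyn1 (-0.20) and Nadk2 (-0.12), and for Nmnat3 with quantile normalization (0.15). The cause was not tested. The set means leave 2 values a group.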
